A study of Mus musculus with 12 samples.

Results

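The transcripts described here are those of 10 genes with which the liver makes glucose and releases it: Pcx, Pck1, Fbp1, Gpd1, Aqp9, G6pc, Slc37a4, Slc2a2, Ppargc1a and Creb3l3. They were chosen by gene symbol, and they are measured by 17 of the 45281 probes on the array. All 10 were among the 8819 genes tested, each through its brightest kept probe. The livers came from insulin-deficient mice of mixed strain background that received either leptin or phosphate-buffered saline (PBS) by intracerebroventricular (icv) infusion into the brain. Leptin, the satiety hormone that fat cells secrete, was given at 25 ng in 0.11 µL per hour, and the leptin livers were collected on day 10. Each group held 6 arrays, leptin 1 to 6 and PBS 1 to 6, and all 12 shared the insulin deficiency, so no array shows a liver with insulin. How insulin was removed, and the age and sex of the mice, are not given in the sources used here, nor are the volume and day for the PBS arrays, whose titles call the infusion a placebo. No label says which mouse an array came from, so the p-values rest on a spread between arrays that could in part be technical.

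Gluconeogenesis rebuilds glucose from lactate, amino acids and glycerol, and it is the main source of blood glucose in a long fast. Pyruvate and amino acid carbon enter through oxaloacetate, glycerol enters at the triose phosphates, and the last step, removal of phosphate from glucose 6-phosphate, takes place inside the endoplasmic reticulum. Glucagon and glucocorticoids raise transcription of the key enzymes and insulin lowers it, and in untreated insulin deficiency the liver's glucose output is high.

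Between 13159 and 14431 probes were detected per array, and the number of arrays limits the precision. Values below are normalized intensities on the log2 scale, means carry an SD over n = 6 arrays, and differences are leptin minus PBS with the SE from limma, whose two-sided p was adjusted by Benjamini-Hochberg over all 8819 genes and passed below 0.05. In bulk liver, fewer cells of a type and less RNA per cell cannot be told apart. Of 9 hepatocyte markers tested, 1 was higher and 1 lower with leptin, and their summed level ran from 16.99 to 17.32 in leptin livers and from 16.98 to 17.33 in PBS livers. Of 6 Kupffer cell markers 2 were higher with leptin (5 without PBS 2, 3 without leptin 6, and 1 without leptin 1, 3 or 5 or any PBS array but PBS 2), with summed levels of 12.14 to 13.43 in leptin livers and 11.55 to 12.58 in PBS livers. Endothelial markers (2 of 7) and stellate cell markers (1 of 6, or 2 without leptin 1, leptin 4 or PBS 3) were higher too. Of all genes, 8.31% were called higher. The T cell markers Cd3d and Cd3e (2 of 2 lymphocyte markers tested) were also higher, while Cd8a, Cd4, Ms4a1 and Nkg7 were not kept. Cd3d was detected on 6 leptin and 3 PBS arrays. Cd3e was detected on 5 leptin arrays and no PBS array, so it passed the filter only through leptin arrays. Its rise was at least 1.04-fold. Without background correction 1 of the 2 was called. The part of all these cell types in the results below was not tested. Of 3 pancreatic acinar markers Cela2a was higher and Amy2a5 lower, no cholangiocyte marker of 2 and no red blood cell marker of 2 passed limma's test (none at an unadjusted p under 0.05, and none by the authors' p-values), and none of the 4 adipocyte or 5 kidney and intestine markers on the array was detected often enough to be tested.

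Pck1 and Creb3l3 fell with leptin, and the other 8 genes did not pass. The share called was 2 of 10, against 16.7% of all genes in either direction, 8.40% lower and 8.31% higher, so the count by itself is near the background. The differences of 9 genes lay below 0, that of Slc2a2 lay above it, and their median was -0.25, while 4369 of all 8819 genes lay below 0 and the median of all genes was 0.0039. Pck1 and Creb3l3 were also the genes of the 10 in which every leptin array lay below every PBS array, as was so for 4.13% of all genes, and in none of the 10 did every leptin array lie above every PBS array, as in 3.15% of all genes.

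**Figure D1:**
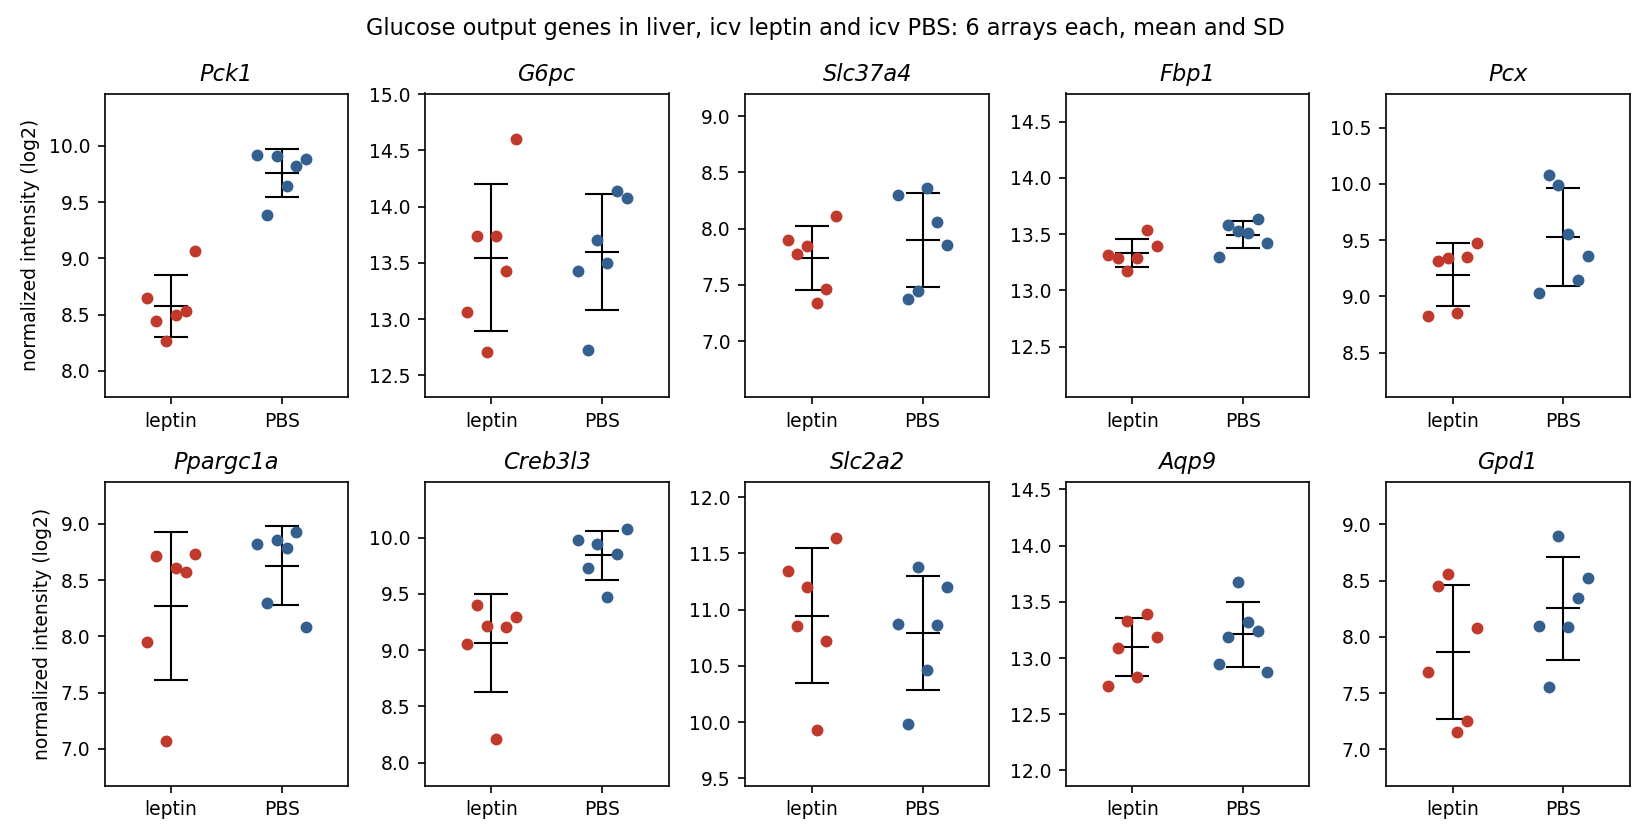
Normalized intensity (log2, y axis, each panel spanning the same range of log2 units) of each of the 10 genes on the 6 leptin arrays (red, left) and the 6 PBS arrays (blue, right), with the group mean and SD as black bars. The points of the groups do not overlap for Pck1 and Creb3l3 and overlap for the other 8 genes.

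Pck1 encodes the cytosolic phosphoenolpyruvate carboxykinase, which turns oxaloacetate into phosphoenolpyruvate. The lowest, median and highest Pck1 intensities were 8.26, 8.51 and 9.07 in leptin livers, against 9.39, 9.85 and 9.92 in PBS livers. The highest leptin array, leptin 6, thus lay below the lowest PBS array, PBS 2. The difference was -1.18 ± 0.14, a 2.27-fold fall with a 95% confidence interval from -1.49 to -0.88 (adjusted p = 0.000377), and 2.80% of all genes differed by more. A second Pck1 probe averaged 8.18 ± 0.39 in leptin livers and 9.20 ± 0.18 in PBS livers, a difference of -1.01 ± 0.17 (adjusted p = 0.00173 over 15062 probes, of which 18.1% were called). The fall was thus measured by 2 separate probes, and the authors' deposited table gives log2 differences of -1.01 and -0.81 for them, without background subtraction.

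Creb3l3 encodes CREBH, a transcription factor held in the endoplasmic reticulum membrane and released by fasting and stress signals, which acts on triglyceride and gluconeogenic genes in liver. Its lowest, median and highest intensities were 8.21, 9.21 and 9.40 in leptin livers, against 9.47, 9.90 and 10.08 in PBS livers. Leptin 4 held the lowest value, and the other 5 leptin arrays lay between 9.06 and 9.40. The fall was -0.78 ± 0.19, or 1.72-fold (adjusted p = 0.0134), and it was -0.61 ± 0.13 without leptin 4 (adjusted p = 0.00723). In the authors' deposited table the log2 difference was -0.68, with no change called at the authors' own threshold.

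The promoters of both genes that fell are shown here with that of G6pc, which encodes the last enzyme of the route and did not pass. Regulation of Pck1 and G6pc by cyclic AMP and insulin is a textbook example. The sequences are RefSeq's for assembly GRCm38.p6, from 250 bases before to 50 after the start of the transcript, 5′ to 3′, and such sequences were found for 9 of the 10 genes. Capitals mark matches, on either strand, to ACGTCA, the core of the cyclic AMP response element, or to CAAAACA, the core of the insulin response element that FoxO factors bind. The Pck1 promoter lies at chr2:173152823-173153122 on the plus strand and holds the cyclic AMP core at -91.
Pck1: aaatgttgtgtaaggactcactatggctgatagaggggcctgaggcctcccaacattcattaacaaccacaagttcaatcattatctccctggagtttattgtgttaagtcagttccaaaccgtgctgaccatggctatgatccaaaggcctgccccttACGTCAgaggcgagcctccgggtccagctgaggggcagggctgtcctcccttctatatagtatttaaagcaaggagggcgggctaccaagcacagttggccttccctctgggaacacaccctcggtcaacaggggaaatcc
The G6pc promoter lies at chr11:101367466-101367765 on the plus strand and holds the insulin response core at -174, on the opposite strand.
G6pc: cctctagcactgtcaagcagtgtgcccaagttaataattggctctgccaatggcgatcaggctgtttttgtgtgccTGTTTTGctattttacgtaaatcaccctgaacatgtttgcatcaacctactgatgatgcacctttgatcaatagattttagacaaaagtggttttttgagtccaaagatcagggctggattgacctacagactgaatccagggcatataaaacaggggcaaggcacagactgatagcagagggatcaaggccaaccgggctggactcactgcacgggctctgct
Of 2 Creb3l3 promoters, the second holds neither core and is not printed. The first lies at chr10:81092542-81092841 on the minus strand and holds the insulin response core at -148.
Creb3l3: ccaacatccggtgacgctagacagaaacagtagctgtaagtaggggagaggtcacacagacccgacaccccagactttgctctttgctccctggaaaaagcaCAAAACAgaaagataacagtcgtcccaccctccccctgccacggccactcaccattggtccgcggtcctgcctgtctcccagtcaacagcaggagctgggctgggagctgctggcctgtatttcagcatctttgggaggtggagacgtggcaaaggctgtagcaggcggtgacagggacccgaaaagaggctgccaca
Of all 32851 promoters of this length, 7.51% hold the cyclic AMP core and 6.28% the insulin response core. Ppargc1a, at -50, and Slc37a4 also hold the cyclic AMP core in a promoter of the table, and neither passed the test. No promoter of the 9 genes holds TGTTTAC, the forkhead motif, which 3.65% of all promoters hold. TTGCNNAA, the C/EBP motif, was found for Aqp9 (10.8% of all promoters), and TGTTCT, part of the glucocorticoid receptor's site, for Aqp9 and the second Creb3l3 promoter (19.0%). A match is a description of the letters and not of a bound site.

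Pcx, pyruvate carboxylase, makes the oxaloacetate that Pck1 uses, from pyruvate in the mitochondrion. Its lowest, median and highest intensities were 8.83, 9.33 and 9.47 in leptin livers, against 9.03, 9.46 and 10.08 in PBS livers. Of the leptin arrays 2 lay below every PBS array, and the difference of -0.33 ± 0.20 did not pass (adjusted p = 0.261). A second Pcx probe was detected on no leptin array and 1 PBS array and was not tested.

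Fbp1, the fructose bisphosphatase of liver, works further along the same route. It stood at 13.17, 13.30 and 13.54 (lowest, median and highest) in leptin livers, against 13.30, 13.52 and 13.63 in PBS livers. These arrays spread less than for any other of the 10 genes, with an SD of 0.12 in each group. The difference of -0.16 ± 0.10 did not pass (adjusted p = 0.280), and its 95% interval ran from -0.37 to 0.050.

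Glycerol enters hepatocytes through the channel Aqp9 and, once phosphorylated, is oxidized by the cytosolic dehydrogenase Gpd1. Aqp9 stood at 12.75, 13.14 and 13.39 in leptin livers, against 12.88, 13.22 and 13.68 in PBS livers (lowest, median and highest). Its difference was -0.12 ± 0.16 (adjusted p = 0.647), with an interval from -0.45 to 0.22, and its second probe was detected on no array. Gpd1 stood at 7.16, 7.88 and 8.56 in leptin livers, against 7.56, 8.22 and 8.90 in PBS livers. Leptin 4 and leptin 5 lay below every PBS array, and the difference of -0.39 ± 0.27 did not pass (adjusted p = 0.346). Gpd1 was called (-1.28, adjusted p = 0.0437) when a clock score per array was added as a covariate. That score is the mean standardized level of 6 circadian genes (Dbp, Nr1d1, Nr1d2, Per3, Tef and Ciart) minus that of Arntl and Clock. It overlapped between the groups only through leptin 4 and PBS 3. Without these arrays, and with no covariate, the Gpd1 difference was -0.12 (adjusted p = 0.784).

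G6pc, the catalytic subunit of glucose 6-phosphatase, had its lowest, median and highest intensities at 12.71, 13.59 and 14.60 in leptin livers, against 12.72, 13.60 and 14.14 in PBS livers. The highest and the lowest of the 12 values were both leptin arrays, leptin 6 and leptin 3. The difference of -0.045 ± 0.301 did not pass (adjusted p = 0.939), and its interval from -0.69 to 0.60 includes changes in both directions. Its deposited signals ran from 6810 to 24947, below the highest signal on the array of 51373.6.

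Slc37a4 carries glucose 6-phosphate into the endoplasmic reticulum for that step. It stood at 7.34, 7.81 and 8.11 in leptin livers, against 7.37, 7.96 and 8.37 in PBS livers (lowest, median and highest), a difference of -0.16 ± 0.19 (adjusted p = 0.608). The groups overlapped over almost their whole ranges, and 1 leptin array lay below every PBS array.

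Slc2a2, the carrier GLUT2 that passes glucose across the hepatocyte membrane, is measured by 4 probes, which did not give 1 direction. Its brightest probe stood at 9.93, 11.02 and 11.64 in leptin livers, against 9.98, 10.86 and 11.38 in PBS livers, a difference of 0.15 ± 0.28 (adjusted p = 0.750). The next probes in brightness differed by -0.31 ± 0.29 (adjusted p = 0.487 over probes) and -0.40 ± 0.28 (adjusted p = 0.350), and the fourth was detected on no array. None of the 3 kept probes passed, so no direction of Slc2a2 can be given.

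Ppargc1a encodes the coactivator PGC1α, which drives gluconeogenic genes together with FoxO1 and HNF4α. Its lowest, median and highest intensities were 7.07, 8.59 and 8.73 in leptin livers, against 8.08, 8.81 and 8.93 in PBS livers. All 6 leptin arrays lay below the PBS median, with leptin 3 far below the others, and the difference of -0.36 ± 0.27 did not pass (adjusted p = 0.389). It ran from -0.464 to -0.114 as arrays were left out singly (adjusted p 0.293 to 0.738). A second probe was detected on no array.

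**Figure D2:**
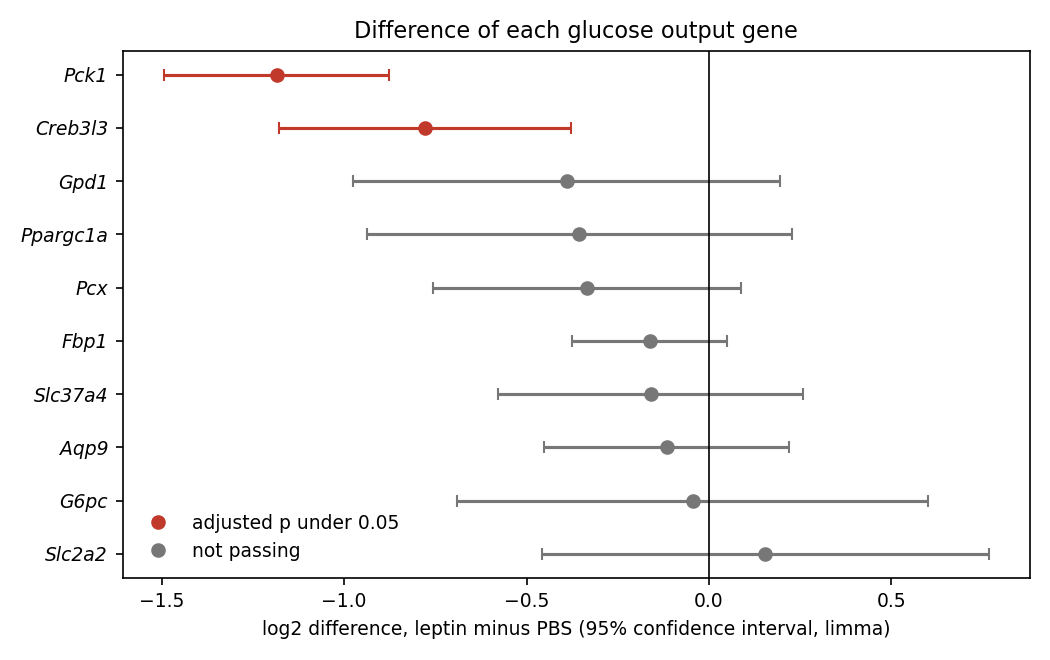
Log2 difference between leptin and PBS livers (x axis) for each of the 10 genes, with its 95% confidence interval from limma. The intervals of Pck1 and Creb3l3 (red, adjusted p under 0.05) lie below 0, and those of the other 8 genes (grey) include 0.

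The gap between Pck1 and the rest was measured on each array by subtracting the log2 intensity of each other gene from that of Pck1, and comparing the 9 resulting values between groups by an exact two-sided permutation test. Pck1 was chosen for this with its fall, and the lack of a call for 8 of the others, already known, so these values describe the size of the gap and add no evidence independent of that fall. The gap passed in 8 of 9 comparisons (Benjamini-Hochberg adjusted p from 0.00487 to 0.0219). Against G6pc the shift was -1.14, and all 6 leptin arrays lay below every PBS array (exact p = 0.00216, the smallest this design allows, adjusted p = 0.00487). The same p was reached against Slc37a4 (-1.02), Fbp1 (-1.02) and Aqp9 (-1.07). Against Slc2a2, read from its brightest probe, the shift was -1.34 (5 of 6 leptin arrays below every PBS array). The other kept Slc2a2 probes differed by -0.31 and -0.40 between groups, and the gap to them was not computed. Against Pcx the shift was -0.85 (3 of 6), against Ppargc1a -0.83 (5 of 6) and against Gpd1 -0.80 (4 of 6). Against Creb3l3 it was -0.41, with 4 of 6 arrays below, and did not pass (exact p = 0.0801, adjusted p = 0.0801), while without leptin 4 it was -0.56 and passed (adjusted p = 0.0111). It passed under 2 of 16 alternatives and not under the other 14. As arrays were left out singly the shift ran from -0.56 to -0.312 (adjusted p 0.0111 to 0.16).

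**Figure D3:**
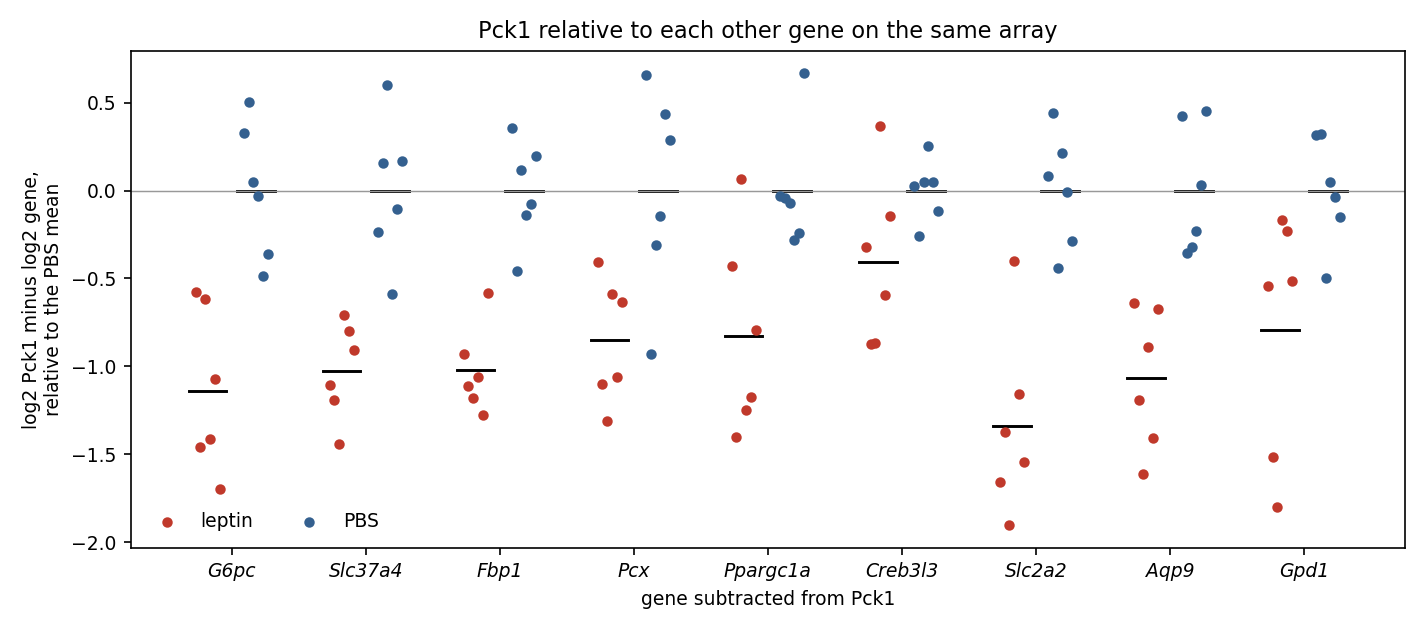
Log2 intensity of Pck1 minus that of each other gene on the same array, set relative to the mean of the PBS arrays (y axis), for 6 leptin arrays (red, left) and 6 PBS arrays (blue, right), with group means as black lines. All leptin points lie below all PBS points for G6pc, Slc37a4, Fbp1 and Aqp9, and the groups overlap for the other 5 genes.

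Within groups some arrays lay on the same side of their group mean in most of the 10 genes. The matching shares over all genes are not given here, and these counts were not tested. With each group's mean subtracted, leptin 6 was above its group mean in 10 of 10 genes and PBS 3 and PBS 5 in 9 of 10, while leptin 4 and PBS 2 were below theirs in 8 of 10. Leptin 6 held the highest leptin value of Pck1, G6pc, Slc37a4, Pcx, Ppargc1a and Slc2a2, and leptin 4 the lowest of Slc37a4, Creb3l3, Slc2a2 and Gpd1. PBS 2 held the lowest PBS value of Pck1, G6pc, Slc37a4, Slc2a2 and Gpd1, and the highest of Pcx.

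Of the 45 pairs of genes, 31 had a Pearson correlation above 0 over these 12 deviations and 6 had an unadjusted permutation p under 0.05. None passed after adjustment over the pairs (smallest adjusted p = 0.230 for Pearson and 0.283 for Spearman). Pck1 and G6pc had r = 0.78 (permutation p = 0.00823, adjusted p = 0.230) and rho = 0.49 (p = 0.125, adjusted p = 0.803), with r = 0.80 in leptin livers and 0.77 in PBS livers. Without leptin 6 and PBS 2, the arrays farthest from the median of Pck1, r was 0.48, so that relation rests largely on those arrays. Pcx and Aqp9 had r = 0.71 (permutation p = 0.0153, adjusted p = 0.230) and rho = 0.58 (p = 0.0563, adjusted p = 0.507), and r was 0.82 without PBS 1 and PBS 2. Slc2a2 and Gpd1 had r = 0.73 (permutation p = 0.0109, adjusted p = 0.230) and rho = 0.69 (p = 0.0252, adjusted p = 0.283), and r was 0.47 without leptin 4 and PBS 2.

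**Figure D4:**
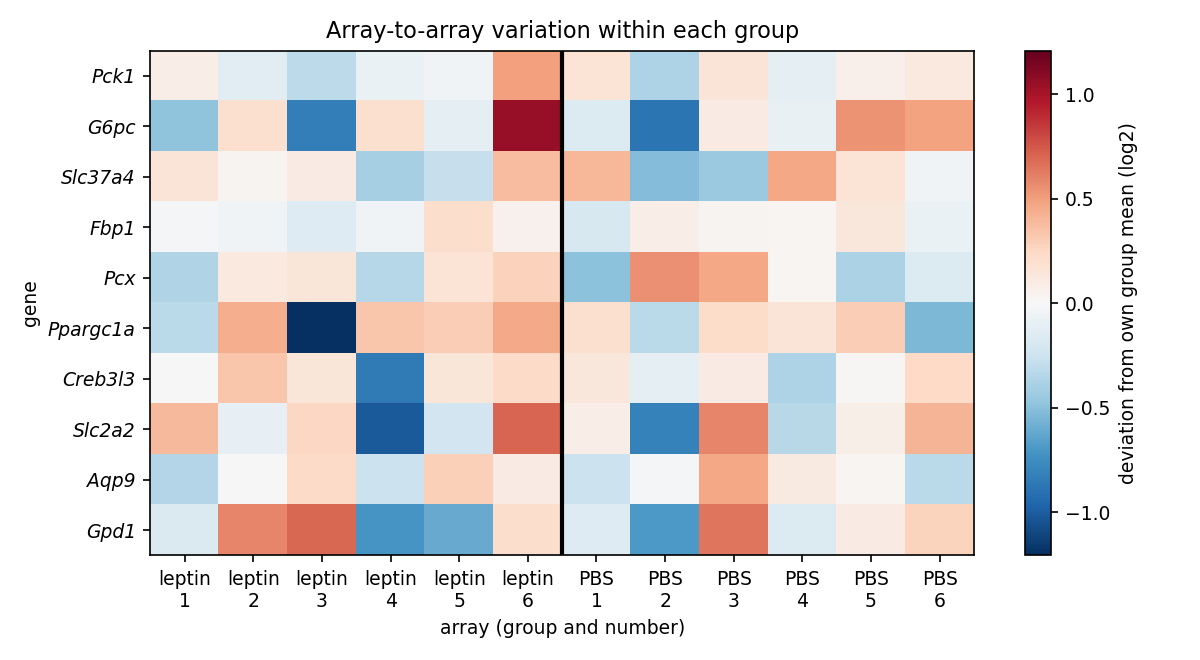
Deviation of each gene (rows) from the mean of its own group (colour, log2) on each of the 12 arrays (columns, leptin left of the line and PBS right). The leptin 6 column is above the group mean in all 10 genes, and the leptin 4 and PBS 2 columns are below it in 8.

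Among all 8819 genes, those whose deviations were most like those of Pck1 were Tsc22d3, a glucocorticoid-induced leucine zipper (r = 0.86), Ehhadh, the peroxisomal bifunctional enzyme (0.85), and Hsdl1 (0.85), as a description over 12 arrays that share their group means and normalization. None of these 3 passed between the groups (adjusted p from 0.245 to 0.722). Most like G6pc were Hhipl2 (0.92), Mpzl2 (0.89) and Bmx (0.86), of which Hhipl2 fell with leptin (-0.86, adjusted p = 0.00159). Most like Ppargc1a were Ddit4, an inhibitor of mTOR signalling (0.88), the urea cycle enzyme Arg1 (0.86) and Lonrf1 (0.825). For these 3 the correlation was higher in leptin livers (0.91 to 0.96) than in PBS livers (0.43 to 0.71), a difference that was not tested. All the r values in this paragraph were picked as the highest among all genes. Their size in part reflects that choice, and none was tested.

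Other genes of glucose synthesis and its inputs, from a list drawn up with earlier results known, were mostly lower in leptin livers where they passed. The test called 11 of 21 lower and 1 higher, and 9 missed the threshold, at a median of -0.51, against 8.40% of all genes lower and a median of 0.0039. The greatest fall was that of Tat, the tyrosine aminotransferase, which averaged 5.78 ± 0.59 in leptin livers and 7.80 ± 0.09 in PBS livers (-2.02 ± 0.22, adjusted p = 0.000203), with detection on 5 leptin arrays. Tat kept its call but stood at -1.05 on the deposited signals, without background correction. The dicarboxylate carrier Slc25a10, which brings malate out of the mitochondrion, fell by 0.89 on the log2 scale (adjusted p = 0.00159) and the aspartate-glutamate carrier Slc25a12 by 0.75 (adjusted p = 0.00222). Pgam1, the phosphoglycerate mutase shared with glycolysis, fell by 0.74 (adjusted p = 0.00351). The others that fell were the shared glycolytic enzymes Pgk1, Gapdh and Tpi1, lactate dehydrogenase Ldha, the transaminases Gpt and Got2, and the carrier Slc25a13, with differences from -0.65 to -0.49.

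The gene that rose was Gpd2 (0.62 ± 0.18, adjusted p = 0.0295), the mitochondrial glycerol phosphate dehydrogenase, named after its value was seen. Gpd2 was no longer called on leaving out leptin 1, leptin 3, leptin 5, PBS 1, PBS 4 or PBS 5 (0.0504 to 0.0634), or with no filter on dim probes (0.0552). With the clock score as a covariate 5 of the 21 were called, all of them lower, and Slc25a12 (-0.44, adjusted p = 0.170), Pgam1 (-0.58, adjusted p = 0.132) and Gpd2 (0.28, adjusted p = 0.589) were not called. Of 3 Mdh1 probes 1 was called, lower with leptin, while the brightest was not called. The list's Dhdh, an enzyme outside this route kept as listed, did not pass.

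**Figure D5:**
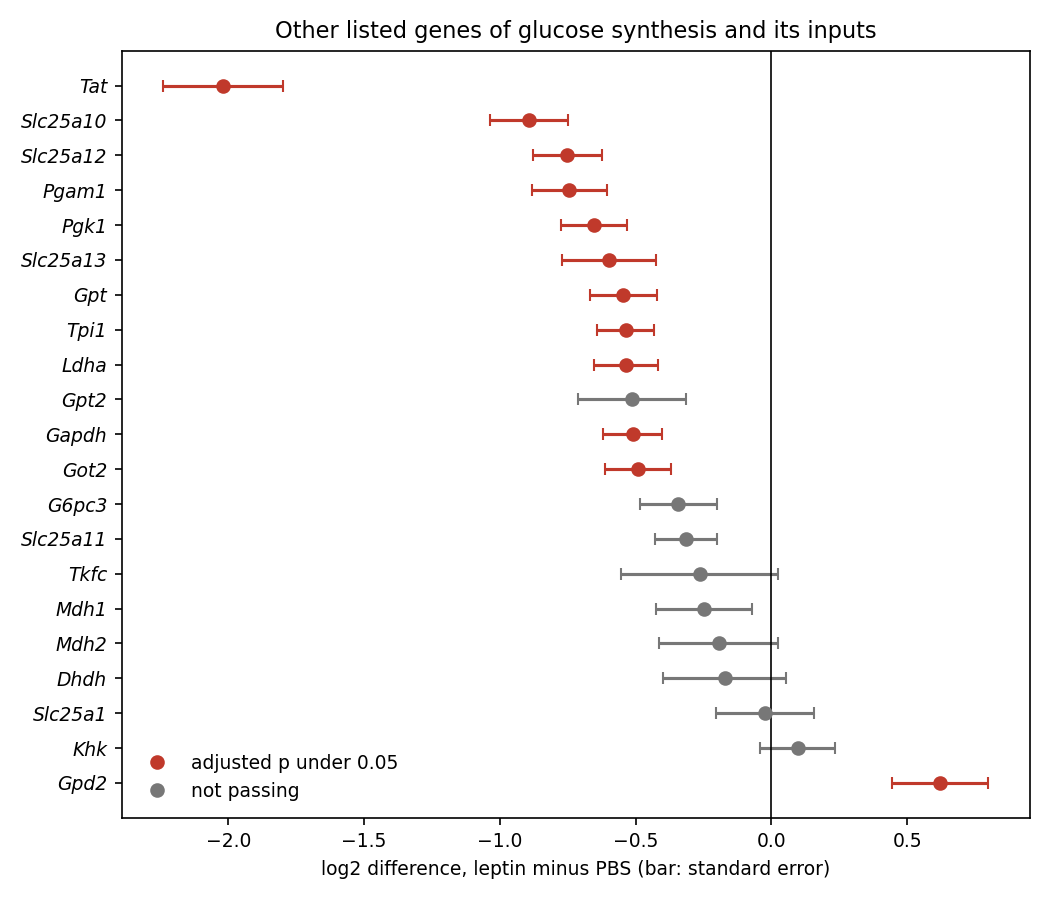
Log2 difference between leptin and PBS livers (x axis, bars are standard errors) for the 21 other listed genes of glucose synthesis and its inputs. Of these, 11 fell and Gpd2 rose (red, adjusted p under 0.05), and 9 did not pass (grey).

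Among 29 regulators of these genes that were tested, 2 were called lower and 1 higher, 26 missed the threshold, and the median was 0.15. Of all genes, 8.40% were called lower and 8.31% higher, larger shares than in this list. Gcgr, the glucagon receptor, rose by 0.66 ± 0.16 (9.49 ± 0.30 in leptin livers and 8.83 ± 0.24 in PBS livers, adjusted p = 0.0127). The forkhead factor Foxa2 fell (-0.76 ± 0.23, adjusted p = 0.0366), as did Crebbp, the coactivator CBP (-0.69 ± 0.20, adjusted p = 0.0284, 1 of 2 probes called). Crebbp was detected on 1 leptin array and 4 PBS arrays, so it passed the filter mainly through PBS arrays. Foxa2 was no longer called on leaving out any leptin array but leptin 2 and leptin 3, or any PBS array but PBS 5 (0.0503 to 0.0792), nor with array weights (0.0577) or no filter on dim probes (0.0806). Crebbp was no longer called on leaving out leptin 3, leptin 5, PBS 4 or PBS 6 (0.0522 to 0.0618), on the deposited signals (-0.22, 0.0538) or with no filter (0.0576). With the clock score as a covariate Gcgr stood at 0.14 ± 0.20 (adjusted p = 0.732), Foxa2 at -1.09 ± 0.38 (0.0849) and Crebbp at -0.92 ± 0.33 (0.0970), none of them called. For Foxa2 and Crebbp the falls were larger than without the score, and so were their SEs. The list's greatest differences in size did not pass, named here after their values were seen: Ppargc1b, which encodes the relative PGC1β of PGC1α, stood at 8.62 ± 0.88 in leptin livers and 7.53 ± 0.61 in PBS livers (1.09 ± 0.38, adjusted p = 0.0627), and the kinase Sik1 at 7.29 ± 1.19 in leptin livers and 6.25 ± 0.63 in PBS livers (1.03 ± 0.47, adjusted p = 0.151).

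Known targets of CREBH were tested because Creb3l3 itself fell. Limma called 3 of 10, all of them lower, against 8.40% of all genes called lower and 16.7% in either direction. The other 7 missed the threshold, and the median was -0.20. Without leptin 2 or without PBS 1 the count lower was 1, without PBS 2 it was 2 with 1 other gene higher, and without PBS 3 and leptin 4 together 3 were lower and 2 higher. The apolipoproteins Apoa4 (-1.14 ± 0.31, adjusted p = 0.0244), Apoc2 (-0.66 ± 0.20, adjusted p = 0.0406, 1 of 2 probes called) and Apoa5 (-0.65 ± 0.16, adjusted p = 0.0151) were those that fell. Leaving out leptin 2 (adjusted p = 0.0505) or PBS 1 (0.0506) ended the call of Apoa4, as did testing with no filter on dim probes (0.0616). That of Apoc2 ended on leaving out leptin 2, leptin 3, leptin 5, leptin 6 or any PBS array but PBS 3 (0.0553 to 0.0864), and also with cyclic loess (0.0520), no filter (0.0840) or the mean over its probes (0.110). With the clock score neither was called (-0.25, adjusted p = 0.782, and -0.25, adjusted p = 0.692). The acute phase target Apcs stood at 11.28 ± 0.98 in leptin livers and 9.84 ± 1.34 in PBS livers and did not pass (adjusted p = 0.104).

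Of 8 tested enzymes and kinases that act against glucose synthesis or steer pyruvate, 1 was called, against 16.7% of all genes. It was the kinase Pdk4, an inhibitor of pyruvate dehydrogenase, which fell (-1.74 ± 0.27, adjusted p = 0.00131). The other 7 missed the threshold (median 0.064). Among these, 1 of 3 Pfkm probes was called lower, while the brightest was not. Without leptin 6 or without PBS 2 the list had 2 genes lower. Under the clock score Pdk4 stood at -1.25 and missed the threshold (adjusted p = 0.0864). Of 5 other sugar carriers of the Slc2a family none passed limma's test (1 had an unadjusted p under 0.05, and none passed by the authors' p-values), with a median of 0.033. Of 4 kept Slc2a9 probes, though, 1 was called lower, while the brightest, which stands for the gene, was not. Slc2a6 differed by 0.90 ± 0.66 (adjusted p = 0.364, called at 3.29 with the clock score, adjusted p = 0.0255) and Slc2a1 by -0.34 ± 0.12 (adjusted p = 0.0716).

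Of 4 aquaporins tested beside Aqp9, the water channels Aqp8 (1.36 ± 0.39, adjusted p = 0.0310) and Aqp1 (0.57 ± 0.10, adjusted p = 0.00261) rose. Aqp4 fell and Aqp11 did not pass, with a median of 0.30. Of all genes, 8.31% were called higher and 8.40% lower. Aqp4 was detected on no leptin array and 4 PBS arrays, so it passed the filter only through PBS arrays. Its fall was at least 1.13-fold (adjusted p = 0.0121). It was not tested where detection on at least 9 of 12 arrays was required. Aqp8 was no longer called on leaving out any leptin array but leptin 4 and leptin 5, or any PBS array but PBS 3 (0.0508 to 0.0669), or with no filter on dim probes (0.0793). With the clock score none of Aqp8 (-0.41 ± 0.32, adjusted p = 0.468), Aqp1 (0.53 ± 0.17, 0.0706) and Aqp4 (-1.09 ± 0.40, 0.106) was called.

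Gluconeogenic enzymes are enriched in periportal hepatocytes, so genes of both lobule zones were set beside them. Of all genes, 8.40% were called lower and 8.31% higher, or 16.7% in either direction. Of 11 periportal genes 4 fell and 1 rose, with a median of -0.39, namely Hal (-0.76 ± 0.15, 1 of 2 probes called), Ass1 (-0.72 ± 0.13), Alb (-0.83 ± 0.25) and Apoc2, and Cdh1 (0.60 ± 0.14), the last named after its value was seen. Without leptin 2, 3, 5 or 6 or PBS 1, 4, 5 or 6 the list had 2 genes lower. The Alb probe was dim for an abundant transcript, at 6.27 ± 0.19 in leptin livers and 7.10 ± 0.66 in PBS livers, and it was no longer called on leaving out any array but leptin 1 and PBS 2 (adjusted p 0.0554 to 0.0803), or with no filter on dim probes (0.0859). Of 13 pericentral genes, Oat (-1.22 ± 0.20) and Slc1a2 (-0.89 ± 0.17) fell, Avpr1a rose (0.86 ± 0.23, 1 of 2 probes called, lost without leptin 5 at adjusted p = 0.0534, without PBS 1 at 0.0506 and with no filter at 0.0535), and 10 missed the threshold (median -0.13). The summed level of the periportal list ran from 15.90 to 16.49 in leptin livers and from 16.33 to 16.75 in PBS livers, and that of the pericentral list from 15.68 to 16.41 in leptin livers and from 16.07 to 16.61 in PBS livers. With the clock score neither Alb (-1.14 ± 0.43, adjusted p = 0.107) nor Cdh1 (0.46 ± 0.24, adjusted p = 0.266) was called.

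Of 12 clock genes tested, 4 rose and 2 fell, against 16.7% of all genes called, while 6 did not pass, and the median was 0.54. Without PBS 3 and leptin 4 together 7 were higher. The output factor Dbp rose (2.65 ± 0.53, adjusted p = 0.00566), as did Bhlhe40 (1.19 ± 0.30, adjusted p = 0.0191), and Clock fell (-1.03 ± 0.14, adjusted p = 0.000726). Arntl was detected on no leptin array and 5 PBS arrays, so it passed the filter only through PBS arrays. Its fall was at least 1.95-fold (adjusted p = 0.00159). It was not tested where detection on at least 9 of 12 arrays was required. The clock score, which holds 8 of the 12 (Bhlhe40, Per1, Per2 and Cry2 are not in it), ran from -0.70 (leptin 4) to 2.15 in leptin livers and from -2.09 to 0.76 (PBS 3) in PBS livers, and those 2 arrays apart it did not overlap between the groups. With the score as a covariate Pck1 (-1.43, adjusted p = 0.00686) and Creb3l3 (-1.36, adjusted p = 0.00958) were called. Without PBS 3 and leptin 4 together, and with no covariate, Pck1 stood at -1.14 (adjusted p = 0.00129) and Creb3l3 at -0.59 (adjusted p = 0.0124). The score follows the groups but for those 2 arrays, so neither fit can tell the clock and the group apart. Feeding and time of day are not given in the sources used here, and their part in these results was not tested.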

How the data were processed

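Liver RNA was read on Illumina Mouse-6 V2 arrays after conversion to biotin-labelled cRNA, per the labels' protocols and the series' design text. Each probe has an intensity and a detection p-value per array, as deposited, per the file headers. Once sorted, the 12 arrays' signals matched (median range 0 percent), so the deposited intensity values were already equalized, with software not given in the sources used here, and no background was subtracted. The authors' log2 values equal log2 of these signals. The deposited Cyber-T table gives an unadjusted p-value and a log2 difference per probe, per the file headers.

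Signals were background corrected and quantile normalized with limma's neqc (offset 16), which gives larger differences for dim genes than the deposited signals do. Probes were named by the GEO platform annotation, 34885 with 1 symbol, 18 with several and 10378 with none here, and 34807 symbols matched RefSeq. Probes detected (p below 0.01) on at least 3 of 12 arrays were kept, 15062 in all, and each of 8819 genes was read from its kept probe of highest mean. All 10 genes passed that filter, through 13 of their 17 probes, and each was detected on all 12 arrays. Groups were compared with limma (lmFit, eBayes, two-sided). A list's summed level is log2 of the sum of its normalized intensities. Where no array of a group detected a gene, its fold is a lower limit, set per array by the lowest detected signal or the probe's own if higher.

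The genes and lists were chosen with earlier results of these data known, so the lists are no independent support. Besides the 10 genes, the text names up to 4 called genes of each list by size of difference (up to 2 where none passed) and 3 genes most like Pck1, G6pc and Ppargc1a. The lists cover other glucose synthesis genes, regulators, opposing enzymes, CREBH targets, sugar carriers, aquaporins, lobule zones, clock genes and cell type markers. In a simulation of the leptin and PBS comparison (200 of 8819 genes changed), the fit found 26.9% of changes of 0.5 log2 units, 85.1% of those of 1 and 95.5% of those of 2. It gave 142 calls, against 1474 in the data, and drew noise independently for each gene. These shares are therefore no measure of power in the reported comparison. Alternatives were other background and normalization methods, filters, probe and variance rules, weighted arrays, the replicate number as a block, the authors' p-values, left-out arrays and a clock gene score. No column used here names a slide, so none was tested as a batch. R 4.3.3, limma 3.58.1, Python 3.11.15 and scipy 1.17.1 were used.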

Additional observations from a re-analysis of the deposited data

Results flagged for a closer look

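In 20 groups of 6 arrays (10 genes in each of the 2 groups), 1 value stood apart from the rest by Dixon's test at the 95% level, which chance alone does in about 1 in 20 groups. Creb3l3 on leptin 4 was at 8.21, while the other 5 leptin arrays ran from 9.06 to 9.40, so the gap to the nearest took 0.712 of the group's whole range.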

How the results depend on the processing

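The number of genes called, 1474, lay between 1053 and 1546 when arrays were left out singly, and was 834 with the clock score as a covariate, where 61.0% of the called genes were higher, against 49.7% as reported and 46.4% to 54.6% under the other alternatives. Of the 10 genes, 2 were called under 23 of the 24 alternatives and 3 with the clock score. Pck1 kept its call under all 24 (-1.43 to -1.01, adjusted p 0.000148 to 0.00686) and Creb3l3 under all 24 (-1.36 to -0.59, adjusted p 0.00723 to 0.0314). The comparison of Pck1 with the other genes gave 8 or 9 of 9 under its 16 alternatives, and no pair of genes was called as correlated under either of its 2. Some differences changed sign, with the cause not tested. G6pc ran from -0.255 to 0.122 as arrays were left out. Slc2a2 ran from -0.0087 to 0.357 as arrays were left out, and was -0.187 as a mean over its probes and -0.934 with the clock score. Aqp9 was 0.030 without PBS 3 and leptin 4 together. These 3 had not passed, while Aqp8 had passed at 1.36 and was -0.406, and not called, with the clock score. With the replicate number as a block 1384 genes and 2 of the 10 were called, though no label says whether same-numbered arrays belong together. Such arrays correlated at -0.317 to 0.456 in their deviations from the group means. Of the leptin arrays 2 of 6 correlated best with their own number, and whether the numbers mark pairs was not tested. That block changed no call of the 10 genes, and with it 3 of 10 CREBH targets were lower and 2 higher, and 1 of 6 Kupffer cell markers higher. With no filter on dim probes the calls of Apoa4, Apoc2, Aqp8, Avpr1a, Alb, Foxa2, Crebbp and Gpd2 ended. Dim signals limit some sizes: on the deposited signals, without background correction, Tat was -1.05, Pdk4 -0.901, Arntl -0.605, Foxa2 -0.328, Aqp4 -0.323 and Crebbp -0.221.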
